A study of Homo sapiens with 6 samples.

Results

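The genes described here encode the enzymes that make cholesterol and fatty acids and the regulators that switch those enzymes on. They were measured in human MCF10A cells and in MCF10A-SNAI1 cells. A list of 31 genes was used, and each gene was read from the brightest probe set annotated with its symbol alone, by the mean of all 6 arrays. This gave values for 29 genes of the 18417 that could be named in this way. HSD17B7 shares its probe set with another symbol, and FDFT1 was not analysed here. MCF10A is an immortalized line of mammary epithelial cells that does not form tumors, and the control arrays hold untransfected cells rather than cells with an empty plasmid. MCF10A-SNAI1 cells stably express the transcriptional repressor SNAI1, which drives epithelial-mesenchymal transition, the loss of epithelial for mesenchymal features. They carry a SNAI1-Flag plasmid with a CMV enhancer and a chicken beta-actin promoter and were selected with puromycin in another laboratory, so plasmid, selection and line history cannot be told apart from SNAI1. Both lines were grown in mammary epithelial growth medium with cholera toxin. Total RNA of 3 replicates per line was hybridized to Affymetrix HuGene arrays, and the values are the log2 signals that the authors deposited.

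Sterol regulatory element binding proteins (SREBPs) are transcription factors held in the membrane of the endoplasmic reticulum by their escort SCAP and by the INSIG proteins while sterols are plentiful. When sterols run low, SCAP carries them to the Golgi, where proteases release the part that enters the nucleus. SREBF2 encodes the form that mainly drives cholesterol synthesis and uptake, and SREBF1 the forms that mainly drive fatty acid synthesis. Epithelial cells need both products for growth and for their membranes.

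Differences between the lines were moderate and ran in both directions. Each log2 fold change below is MCF10A-SNAI1 minus MCF10A, from limma fitted to all probe sets with Benjamini-Hochberg adjustment over all of them. The thresholds of the study, an adjusted p below 0.01 and a change above 2-fold, were passed by 1 gene, the fatty acid desaturase FADS2, which was lower. None was called higher. Among all genes, 3.10% were called higher and 2.54% lower at these thresholds. With a fold threshold of 1.5, SREBF1, INSIG1 and FADS1 were called higher and PMVK, ELOVL6 and FADS2 lower, against 7.50% and 6.24% of all genes. At an adjusted p below 0.01 with no fold threshold, which is the sense of rose and fell below, 7 of the 29 genes rose and 9 fell. Of all genes 12.1% rose and 11.2% fell, 23.2% in both directions together, against 16 of the 29. All 29 genes had a mean above the median of all values. Among the 11251 genes with such signal, 17.0% rose and 16.4% fell (33.4% together), and 4.10% and 3.51% were called higher and lower past 2-fold. At an adjusted p below 0.05 the 29 genes gave 7 higher and 11 lower, against 16.7% and 16.1% of all genes. With the replicate number as a block the numbers were 3 and 7 (8.92% and 7.98% of all genes), and with the methods' t-test 4 and 4 (7.92% and 7.24%). The median log2 fold change was -0.09 over the 29 genes and -0.01 over all genes. Arrays of MCF10A-SNAI1 cells lay all above those of MCF10A for 8 genes and all below for 14, against 23.7% and 24.6% of all genes. Each of these 22 genes has p = 0.1 in an exact permutation test (two-sided), and a design of 3 against 3 cannot go lower.

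**Figure D1:**
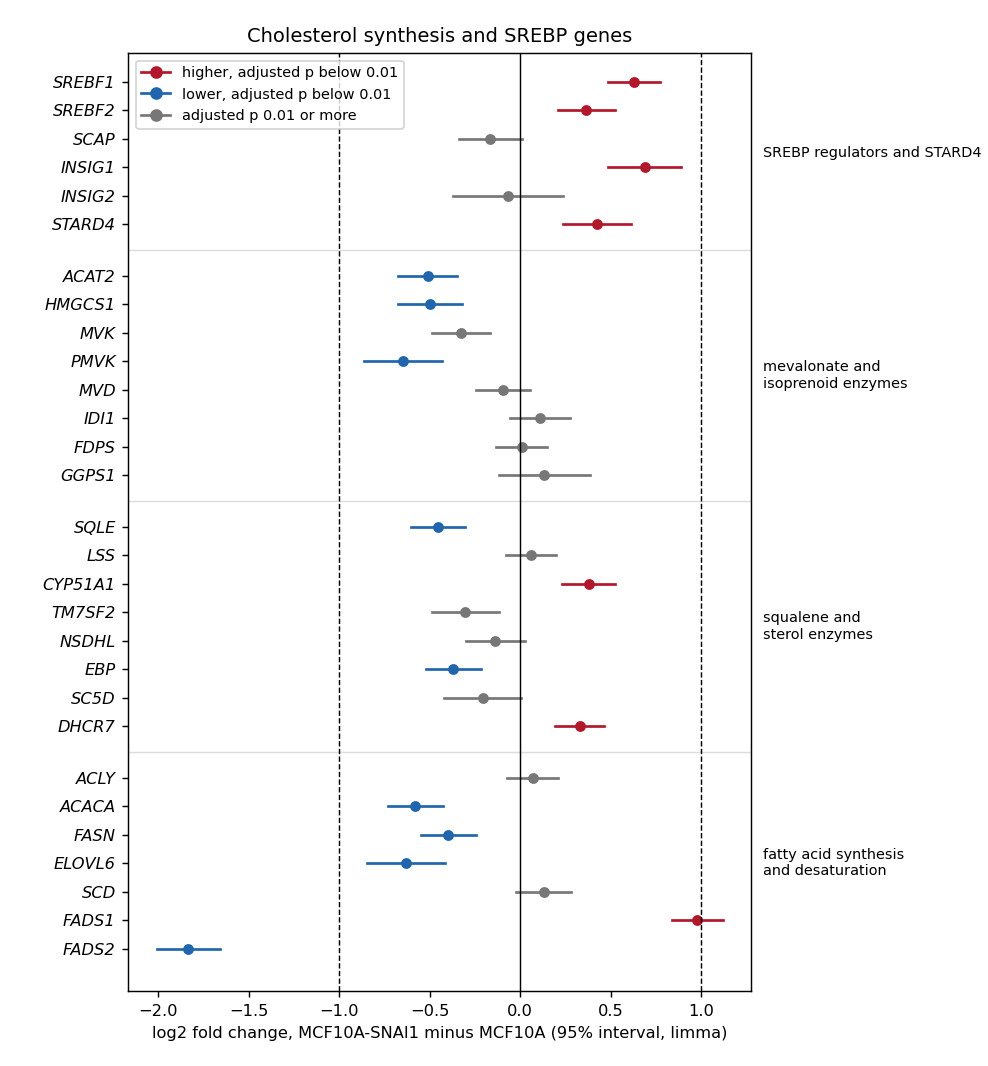
Log2 fold change of the 29 measured genes, MCF10A-SNAI1 minus MCF10A, with 95% intervals from limma, grouped by role. Red genes rose and blue genes fell at an adjusted p below 0.01, grey genes did not pass, and dashed lines mark 2-fold; FADS2, at -1.83, is the only gene with a fold change past them.

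SNAI1 itself had a log2 signal of 5.76 ± 0.037 in MCF10A and 10.51 ± 0.015 in MCF10A-SNAI1 (SD, n = 3), and CDH1, the E-cadherin gene, differed at a log2 fold change of -3.97, so both lines carried their labels. Of 7 measured epithelial markers 6 fell and 1 rose, and of 8 mesenchymal markers 6 rose and 1 fell. Of 18 genes of the cell cycle, 7 fell (38.9%, against 11.2% of all genes and 16.4% of those above the median signal). None rose and 11 did not pass, with a median log2 fold change of -0.17. The mean log2 signal of these 18 genes ran from 9.90 to 9.99 in MCF10A and from 9.68 to 9.80 in MCF10A-SNAI1. The part of the cell cycle genes in the lipid results was not tested. Of 7 adipocyte markers only LPL, the lipoprotein lipase gene, rose, at a log2 fold change of 3.40. The mean log2 signal of the 7 ran from 5.23 to 5.33 and from 5.66 to 5.79. None of 6 endothelial and blood markers passed the test. Array medians lay between 6.04 and 6.09. In bulk RNA, a change in the share of a cell type and a change in RNA per cell cannot be told apart.

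Both SREBP genes were higher in MCF10A-SNAI1. Of the 6 measured genes of SREBP control and sterol transport, SREBF1, SREBF2, INSIG1 and the sterol transporter STARD4 rose and none fell. The share that rose was 66.7%, against 17.0% of genes above the median signal, of which 16.4% fell. The median log2 fold change of the 6 was 0.39. SREBF1 read 8.71, 8.64 and 8.64 on the MCF10A arrays and 9.35, 9.25 and 9.28 on the MCF10A-SNAI1 arrays. The lines did not overlap, and SREBF1 was 1.55-fold higher (log2 fold change 0.63 ± 0.061 SE, limma adjusted p = 0.000349). SREBF2 read 9.39, 9.39 and 9.25 against 9.74, 9.67 and 9.72, a smaller rise (log2 fold change 0.37 ± 0.066 SE, limma adjusted p = 0.0065). INSIG1, which retains SREBPs in the endoplasmic reticulum and is itself an SREBP target, read 9.66, 9.45 and 9.45 against 10.18, 10.31 and 10.14. Its rise was 1.61-fold (log2 fold change 0.69 ± 0.086 SE, limma adjusted p = 0.0011), the largest among these regulators. STARD4, which carries cholesterol between membranes, read 9.18, 9.42 and 9.33 against 9.67, 9.77 and 9.75 (log2 fold change 0.42, limma adjusted p = 0.0076). The escort gene SCAP overlapped between the lines, at a log2 fold change of -0.16 (95% interval -0.34 to 0.01, limma adjusted p = 0.179). INSIG2, the relative of INSIG1 that is not induced by SREBPs in the same way, also overlapped, at -0.07 (95% interval -0.37 to 0.24). SREBF1 and INSIG1 passed with any array left out. SREBF2 and STARD4 missed the threshold whichever of the 6 arrays was left out, at adjusted p of 0.0164 to 0.0280 and of 0.0103 to 0.0316.

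Promoters of SREBF2 and INSIG1 are shown because both regulators rose, and that of HMGCS1, an enzyme gene that fell, is shown for comparison. Each is the stretch of 250 bases before the outermost RefSeq start, read 5′ to 3′ in GRCh38.p14. Capitals mark TCACNCCAC, a form of the sterol regulatory element, and CCAAT, the box bound by NF-Y, searched on both strands, so that CCAAT also appears as ATTGG.
SREBF2 promoter, chr22:41832855-41833104, plus strand: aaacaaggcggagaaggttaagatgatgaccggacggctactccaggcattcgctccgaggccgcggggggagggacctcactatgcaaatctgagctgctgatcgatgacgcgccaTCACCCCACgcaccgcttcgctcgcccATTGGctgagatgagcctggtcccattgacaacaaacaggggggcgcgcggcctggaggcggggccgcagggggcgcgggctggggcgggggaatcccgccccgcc
INSIG1 promoter, chr7:155297628-155297877, plus strand: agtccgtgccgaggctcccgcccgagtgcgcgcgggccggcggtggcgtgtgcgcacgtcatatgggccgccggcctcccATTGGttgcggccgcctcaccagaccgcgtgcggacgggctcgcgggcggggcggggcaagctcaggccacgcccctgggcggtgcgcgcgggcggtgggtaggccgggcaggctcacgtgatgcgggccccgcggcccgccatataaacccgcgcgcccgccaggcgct
HMGCS1 promoter, chr5:43313413-43313662, minus strand: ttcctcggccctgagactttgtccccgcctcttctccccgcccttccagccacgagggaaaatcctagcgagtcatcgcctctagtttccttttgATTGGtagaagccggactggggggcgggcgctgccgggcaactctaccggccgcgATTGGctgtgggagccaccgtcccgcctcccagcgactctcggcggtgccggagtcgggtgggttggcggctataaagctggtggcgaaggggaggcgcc
In SREBF2 the sterol element begins 133 bases before the start and the CCAAT box 106 bases before it. In the window of 250 bases before and 50 after each start, TCACNCCAC was found in 1.13% of all 35116 promoters and in 1 of the 39 promoters listed for 27 of the 31 genes, that of SREBF2. CCAAT was found in 24 of the 39 (61.5%) and in 34.6% of all promoters. By gene, 20 of the 27 held a CCAAT in at least 1 promoter, against 39.7% of all genes. Of the genes that rose, 4 of 7 held a CCAAT, and of the genes that fell and had a listed promoter, 4 of 6. CACCTG, the E-box that Snail proteins bind, was in 8 of the 39 promoters (20.5%) and in 20.6% of all. Only the letters searched are described, other forms of the sterol element were not searched, and no binding was measured.

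Among enzymes of the mevalonate pathway and of isoprenoid synthesis, ACAT2, HMGCS1 and PMVK fell. Of 8 measured genes from ACAT2 to GGPS1 these were the 3 that fell (37.5%, against 16.4% of genes above the median signal). None rose (against 17.0%) and 5 did not pass, with a median log2 fold change of -0.21. ACAT2, which joins acetyl-CoA units at the entry of the pathway, read 10.39, 10.45 and 10.40 in MCF10A and 9.88, 10.01 and 9.83 in MCF10A-SNAI1 (log2 fold change -0.51 ± 0.069 SE, limma adjusted p = 0.0017). HMGCS1, the HMG-CoA synthase whose promoter is printed above, read 11.30, 11.42 and 11.33 against 10.87, 10.94 and 10.75 (log2 fold change -0.50 ± 0.074 SE, limma adjusted p = 0.0026). PMVK, the phosphomevalonate kinase, read 8.33, 8.32 and 8.59 against 7.70, 7.85 and 7.75. It was 1.56-fold lower, the strongest fall of the 8 (log2 fold change -0.65 ± 0.091 SE, limma adjusted p = 0.0020). In none of these 3 genes did the lines overlap. The mevalonate kinase MVK was also lower on every MCF10A-SNAI1 array but missed the threshold, at -0.33 (limma adjusted p = 0.0120). It passed at an adjusted p of 0.0089 and 0.0034 when probe sets dim in both lines were left out, and of 0.0037 with trended and robust moderation. The other 4 enzymes had intervals that included 0. The log2 fold change was -0.09 for the decarboxylase MVD (95% interval -0.25 to 0.06), although all its MCF10A-SNAI1 arrays lay below those of MCF10A, and 0.11 for the isomerase IDI1 (-0.06 to 0.27). It was 0.01 for the farnesyl diphosphate synthase FDPS (-0.13 to 0.15) and 0.13 for GGPS1 (-0.12 to 0.39). HMGCS1 no longer passed when MCF10A replicate 2, MCF10A replicate 3 or MCF10A-SNAI1 replicate 3 was left out (limma adjusted p = 0.0128, 0.0117 and 0.0104), and PMVK barely missed it without MCF10A-SNAI1 replicate 3.

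**Figure D2:**
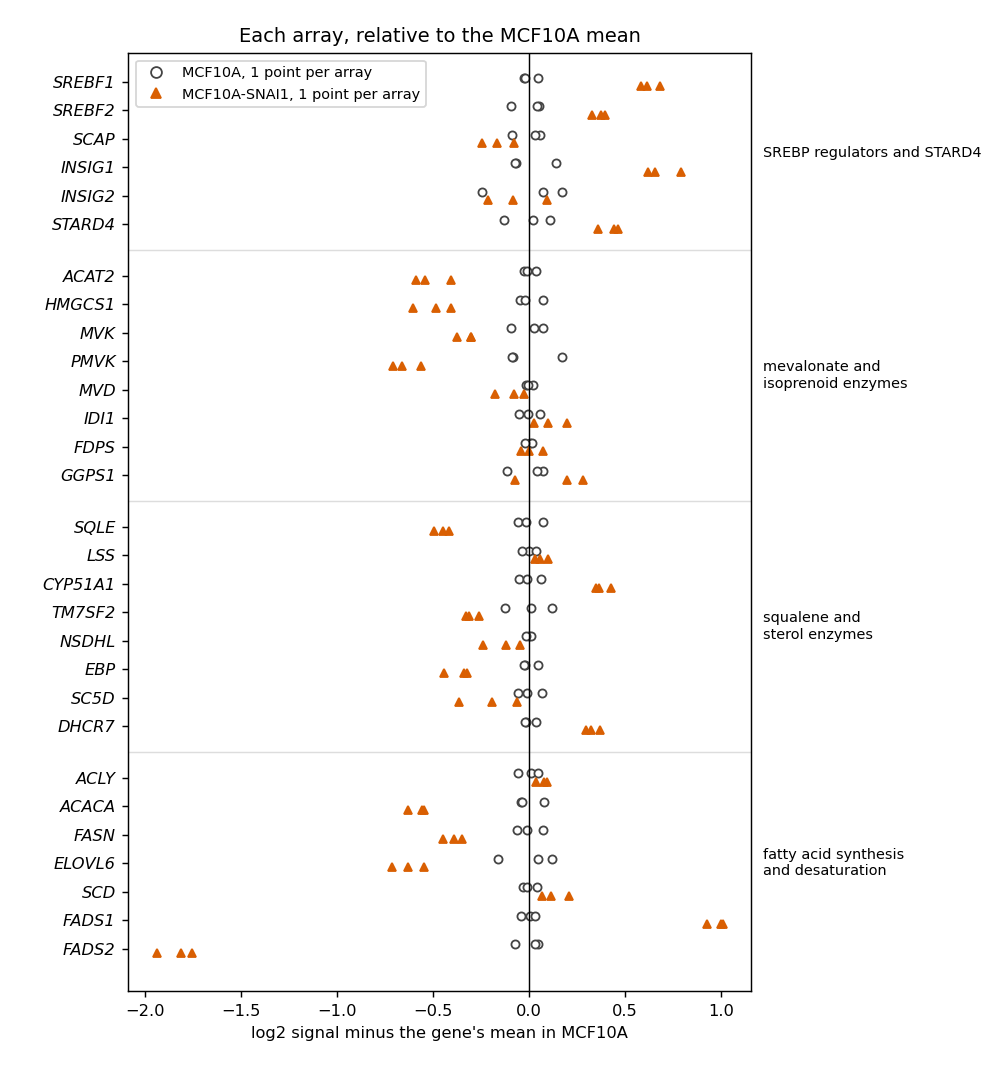
Log2 signal of each array minus the mean of the 3 MCF10A arrays for the 29 genes, with open circles for MCF10A and orange triangles for MCF10A-SNAI1. The triangles lie right of the circles for SREBF1, SREBF2, INSIG1, STARD4, CYP51A1, DHCR7, SCD and FADS1, and left of them for 14 genes.

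Enzymes that turn squalene into cholesterol went both ways. Of 8 measured genes, 2 rose and 2 fell (25% each), against 17.0% and 16.4% of genes above the median signal. The other 4 did not pass, and the median log2 fold change was -0.17. Squalene epoxidase SQLE, a rate-limiting step of the pathway, read 11.64, 11.77 and 11.68 in MCF10A and 11.25, 11.28 and 11.20 in MCF10A-SNAI1 (log2 fold change -0.45 ± 0.063 SE, limma adjusted p = 0.0019). EBP, the sterol isomerase, read 10.87, 10.80 and 10.79 against 10.38, 10.48 and 10.50 (log2 fold change -0.37, limma adjusted p = 0.0052). Both fell without overlap of the lines. CYP51A1, which demethylates lanosterol, rose instead, from 11.35, 11.46 and 11.39 to 11.75, 11.82 and 11.76 (log2 fold change 0.38, limma adjusted p = 0.0040). A second probe set of CYP51A1 was at 0.31, with an adjusted p of 0.0263. DHCR7, the reductase of the last step, read 11.27, 11.27 and 11.32 against 11.59, 11.66 and 11.61 (log2 fold change 0.33, limma adjusted p = 0.0054). These rises were about as large as the fall of EBP. The lanosterol synthase LSS was at 0.06 (95% interval -0.08 to 0.20) and overlapped between the lines. TM7SF2, NSDHL and SC5D were each lower on all MCF10A-SNAI1 arrays without passing, by -0.30, -0.14 and -0.21 on the log2 scale (limma adjusted p = 0.0287, 0.235 and 0.166). EBP and DHCR7 missed the threshold whichever array was left out, at adjusted p of 0.0143 to 0.0227 and of 0.0115 to 0.0256. CYP51A1 missed it without replicate 1 or 3 of MCF10A and without replicate 2 or 3 of MCF10A-SNAI1 (limma adjusted p = 0.0180, 0.0197, 0.0194 and 0.0172), and SQLE without MCF10A-SNAI1 replicate 3 (limma adjusted p = 0.0111).

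In fatty acid synthesis, the carboxylase, the synthase and the elongase fell, and of the 3 desaturases FADS1 rose, FADS2 fell and SCD did not pass. Of 7 measured genes 4 fell (57.1%) and 1 rose (14.3%), against 16.4% and 17.0% of genes above the median signal. The median log2 fold change of the 7 was -0.40. ACACA, the acetyl-CoA carboxylase that commits carbon to fatty acids, read 9.03, 9.16 and 9.04 in MCF10A and 8.45, 8.52 and 8.53 in MCF10A-SNAI1 (log2 fold change -0.58 ± 0.064 SE, limma adjusted p = 0.000671). FASN, the fatty acid synthase, read 11.19, 11.10 and 11.05 against 10.77, 10.72 and 10.67 (log2 fold change -0.40, limma adjusted p = 0.0041). ELOVL6, which elongates its product palmitate, read 9.07, 9.35 and 9.28 against 8.52, 8.68 and 8.60 (log2 fold change -0.63, limma adjusted p = 0.0023). All 3 fell without overlap of the lines. The enzymes on either side of them did not pass. ACLY, which makes cytosolic acetyl-CoA from citrate, was at a log2 fold change of 0.07 (95% interval -0.07 to 0.21). SCD, which desaturates stearate, was at 0.13 (95% interval -0.02 to 0.28, limma adjusted p = 0.223), although all its MCF10A-SNAI1 arrays lay above those of MCF10A. ACACA passed with any array left out. ELOVL6 missed the threshold without replicate 2 or 3 of MCF10A and without replicate 3 of MCF10A-SNAI1 (limma adjusted p = 0.0101, 0.0124 and 0.0106), and FASN missed it without any array other than MCF10A-SNAI1 replicate 1, at adjusted p of up to 0.0206.

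FADS1 and FADS2, neighbouring genes on chromosome 11 that encode the delta-5 and delta-6 desaturases of polyunsaturated fatty acids, changed in opposite directions. FADS2 read 9.37, 9.49 and 9.48 in MCF10A and 7.51, 7.70 and 7.64 in MCF10A-SNAI1. It was 3.57-fold lower (log2 fold change -1.83 ± 0.074 SE, 95% interval -2.01 to -1.66, limma adjusted p = 5.96e-06). FADS1 read 8.98, 9.03 and 9.05 against 9.95, 10.02 and 10.03. It was 1.97-fold higher (log2 fold change 0.98 ± 0.059 SE, 95% interval 0.84 to 1.12, limma adjusted p = 4.03e-05), just under the 2-fold threshold. In both genes the gap between the lines was wider than the whole range of either line. Without MCF10A-SNAI1 replicate 1, FADS1 was at 1.00 and was called higher. FADS3, the next coding gene along the chromosome and outside the list of 31, read 10.15, 10.22 and 10.23 against 10.96, 10.97 and 11.05 (log2 fold change 0.80, limma adjusted p = 0.000115). FADS1 and FADS3 thus rose and FADS2 between them fell.
The stretches before the outermost RefSeq starts of FADS1 and FADS2 are printed because these starts lie close together on opposite strands and the genes moved apart. By the coordinates, the FADS2 stretch lies downstream of the FADS1 start, so the stretches do not form a shared promoter between the starts. All letters are in lower case, since neither TCACNCCAC nor CCAAT nor CACCTG is in them.
FADS1 promoter, chr11:61817004-61817253, minus strand: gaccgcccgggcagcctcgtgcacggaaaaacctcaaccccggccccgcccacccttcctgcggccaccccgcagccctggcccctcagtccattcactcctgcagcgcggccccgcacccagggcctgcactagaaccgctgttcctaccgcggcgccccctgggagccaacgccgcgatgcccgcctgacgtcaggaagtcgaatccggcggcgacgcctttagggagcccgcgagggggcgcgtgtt
FADS2 promoter, chr11:61815953-61816202, plus strand: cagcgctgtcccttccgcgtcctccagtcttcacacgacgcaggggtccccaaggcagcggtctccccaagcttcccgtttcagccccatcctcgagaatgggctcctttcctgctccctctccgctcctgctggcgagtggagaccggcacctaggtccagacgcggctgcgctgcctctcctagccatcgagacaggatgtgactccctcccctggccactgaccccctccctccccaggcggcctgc
A further start is listed for FADS2, and its window holds a CCAAT. Which start the cells used was not measured.

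**Figure D3:**
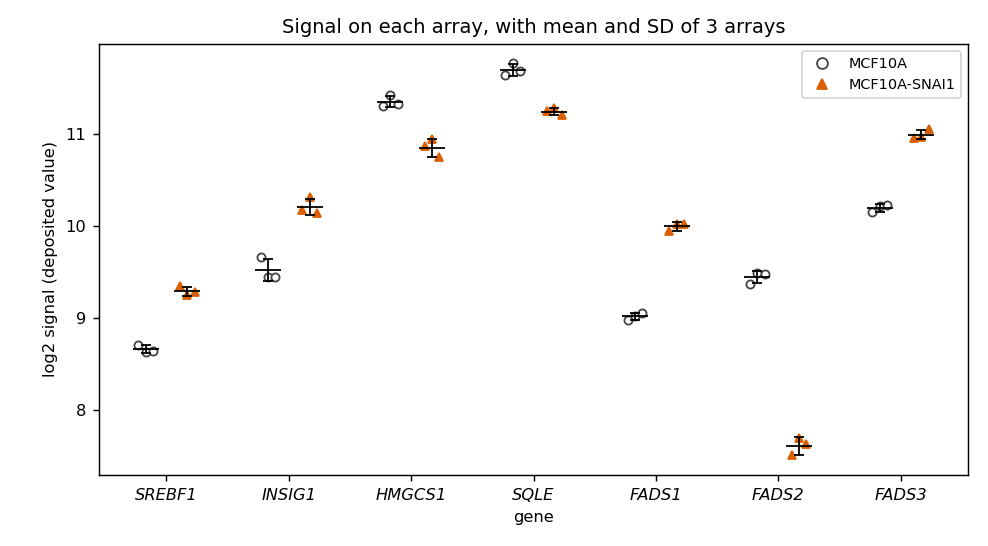
Log2 signal on each array for 7 genes in MCF10A (open circles) and MCF10A-SNAI1 (orange triangles), black marks giving mean and SD (n = 3). FADS1 and FADS3 lie higher and FADS2 lower in MCF10A-SNAI1, and SREBF1 and INSIG1 lie higher while HMGCS1 and SQLE lie lower; levels of different genes are not comparable on this scale.

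Other genes of sterol and fatty acid handling came from 4 further lists with 73 measured genes, 60 of them above the median signal. Of the 73, 20 rose (27.4%, against 12.1% of all genes and 17.0% of those above the median signal). Another 10 fell (13.7%, against 11.2% and 16.4%). Past 2-fold, 5 were called higher (6.85%, against 3.10% of all genes and 4.10% of those above the median signal). In the other direction, 2 were called lower (2.74%, against 2.54% and 3.51%). Among 8 genes of SREBP cleavage and sterol-regulated turnover, 3 rose and 1 fell (37.5% and 12.5%). Of genes above the median signal, 17.0% rose and 16.4% fell. The Golgi proteases MBTPS1 and MBTPS2, which release SREBPs, rose by 0.28 and 0.34 on the log2 scale (limma adjusted p = 0.0091 and 0.0061). Both missed the threshold whichever array was left out, at adjusted p of up to 0.0429 and 0.0265. MYLIP, a ubiquitin ligase that removes lipoprotein receptors, rose at 0.69 (limma adjusted p = 0.000397). The gene of this list that fell was TRIB1, at -0.66 (limma adjusted p = 0.000514). Of 11 further sterol and isoprenoid genes none rose and 2 fell (18.2%, near the 16.4% of genes above the median signal). The stronger fall was that of PDSS1, an enzyme of the ubiquinone side chain, at -0.96. MSMO1, the sterol methyl oxidase, was at 0.20 (95% interval 0.02 to 0.38, limma adjusted p = 0.113).

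Of the lipoprotein receptors, 3 changed by more than 2-fold. Of 22 genes of cholesterol uptake, storage and efflux, 6 rose (27.3%, against 12.1% of all genes and 17.0% of those above the median signal) and 3 fell (13.6%, against 11.2% and 16.4%). LRP1, a scavenging receptor for apolipoprotein E particles, read 6.61, 6.63 and 6.58 in MCF10A and 9.36, 9.42 and 9.47 in MCF10A-SNAI1, a 7.00-fold rise (log2 fold change 2.81 ± 0.060 SE, limma adjusted p = 4.52e-07). VLDLR, the very low density lipoprotein receptor, rose at 1.79, from 6.45, 6.22 and 6.42 to 8.07, 8.10 and 8.28. SCARB1, the receptor for high density lipoprotein, fell from 10.45, 10.35 and 10.37 to 9.35, 9.36 and 9.34 (log2 fold change -1.04, limma adjusted p = 2.79e-05). None of these 3 receptors overlapped between the lines. The lysosomal genes LIPA, the acid lipase, and NPC1, the cholesterol exporter, rose at 0.67 and 0.32. NPC1 missed the threshold whichever array was left out (adjusted p of up to 0.0330). NPC2, also lysosomal, overlapped between the lines at 0.09 (limma adjusted p = 0.398). Besides SCARB1, the genes of this list that fell were STARD3 and NCEH1, at -0.56 and -0.40 (limma adjusted p = 0.00093 and 0.0054).

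Of 32 other fatty acid and glycerolipid genes, 26 lay above the median signal. Of the 32, 11 rose (34.4%, against 12.1% of all genes and 17.0% of those above the median signal). Another 4 fell (12.5%, against 11.2% and 16.4%). ACSL1, which activates long-chain fatty acids, read 9.05, 9.20 and 9.06 in MCF10A and 11.06, 11.03 and 11.001 in MCF10A-SNAI1, a 3.80-fold rise (log2 fold change 1.93 ± 0.066 SE, limma adjusted p = 2.96e-06). PNPLA3, a lipase of lipid droplets, rose at 1.73 and the phosphatidate phosphatase LPIN2 at 1.08. ELOVL7, an elongase of saturated fatty acids, fell at -1.54. ACSS2, which makes acetyl-CoA from acetate, rose at 0.75 (limma adjusted p = 0.000132). These 5 genes passed an adjusted p of 0.01 with any array left out. The other genes of this list that fell were ELOVL1, CPT1A and HSD17B12. They were at -0.58, -0.55 and -0.36 (limma adjusted p = 0.0012, 0.000686 and 0.0069).

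**Figure D4:**
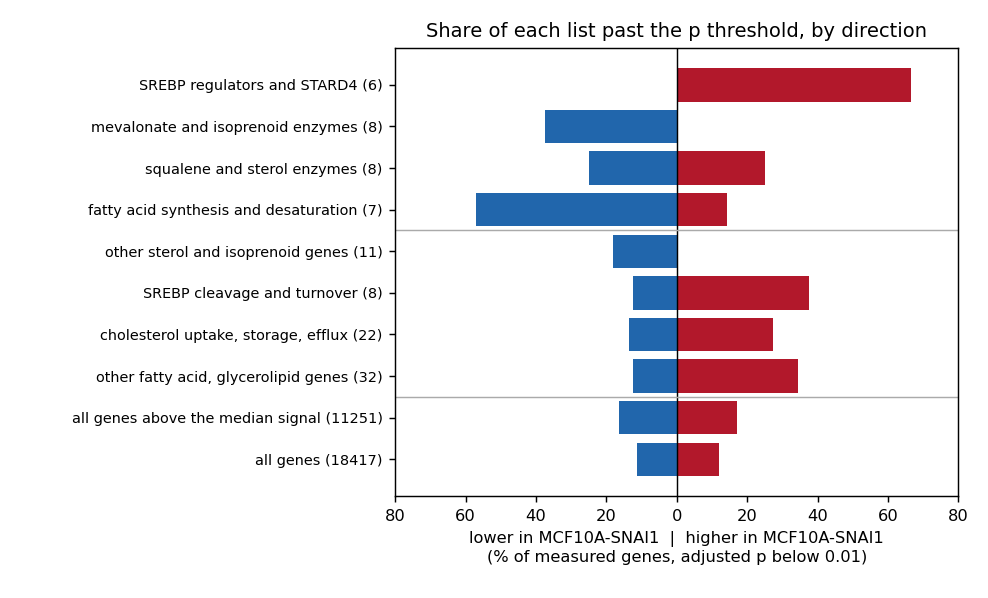
Percent of the measured genes of each list that rose (red) or fell (blue) at an adjusted p below 0.01, with the number measured in brackets and all genes at the bottom. The SREBP regulators together with STARD4 have 4 of 6 genes higher and none lower, and the fatty acid enzymes 4 of 7 lower and 1 higher.

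**Figure D5:**
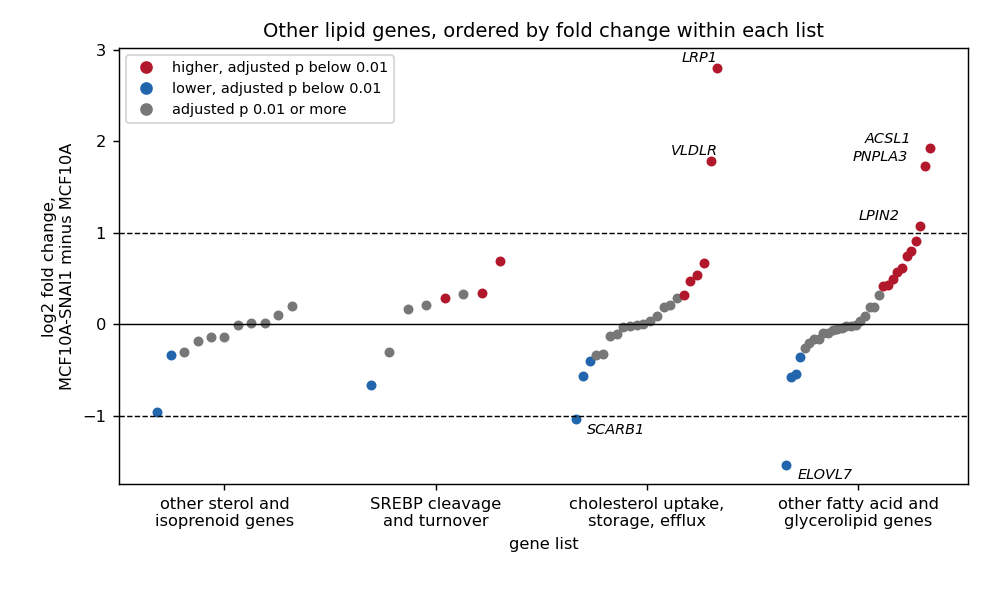
Log2 fold change of the 73 genes in 4 further lipid lists, MCF10A-SNAI1 minus MCF10A, 1 point per gene, ordered by value within a list, with dashed lines at 2-fold. The 7 genes named on the plot are past 2-fold at an adjusted p below 0.01, with LRP1 at 2.81 and ELOVL7 at -1.54 as the extremes.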

How the data were processed

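The authors deposited log2 signals for 33297 probe sets on 6 Affymetrix HuGene arrays. In the article, the steps are GC RMA, a filter and an unpaired t-test in GeneSpring. GCOS, MAS5 and Affymetrix Expression Console 1.1 appear in the submitters' processing notes, and which program wrote the table is not given. The table holds no detection calls, and the number of arrays limits the precision. Groups and replicate numbers came from the sample titles, and a p-value measures only the spread between these arrays.

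The values were used as deposited and fitted with limma 3.58.1 in R 4.3.3 (linear model, empirical Bayes moderation, Benjamini-Hochberg over all probe sets), which was tested on simulated data. Of the probe sets, 19460 had 1 gene symbol, 1754 several and 12083 none in the platform annotation, and only the first kind was named. The 30 probe sets of the members carried the same symbol in RefSeq (GRCh38.p14). Named genes were SNAI1, CDH1, all members, the called genes of the further lipid lists and MSMO1. FADS3, MBTPS1, MBTPS2, MYLIP, PDSS1, NPC1, LIPA and ACSS2 lie outside this rule. So do NPC2, STARD3, NCEH1, TRIB1, ELOVL1, CPT1A and HSD17B12. All of these, and LPL among the markers, were named after their values were seen. Not every gene of the further lists that rose or fell is named. The members and lists were chosen with earlier results of these data known. Alternatives were quantile normalization, median centring, leaving out each array, a block for the replicate number, removal of dim probe sets at 2 levels, limma's trended and robust options, the methods' t-test, the mean of a gene's probe sets, a fold threshold of 1.5 and an adjusted p below 0.05. Promoters came from RefSeq.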

Additional observations from a re-analysis of the deposited data

How the results depend on the processing

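At both thresholds, FADS2 was called lower in every alternative, and no member was called higher except FADS1 without MCF10A-SNAI1 replicate 1 (range 0 to 1 over arrays left out). A fold threshold of 1.5 gave 3 members higher and 3 lower (7.50% and 6.24% of all genes). Without a fold threshold, the count of members that rose was less stable: 3 with the replicate number as a block, 4 with the methods' t-test and 3 to 4 with an array left out, against 7. The count that fell was 4 with the t-test and 3 to 8 with an array left out, against 9. The background over all genes, dim ones included, moved as well. It was 8.52 to 10.3% higher and 7.51 to 8.79% lower over the arrays left out. With the block it was 8.92% and 7.98%, and with the t-test 7.92% and 7.24%. The cause of the lower counts was not tested. INSIG1 rose in all of them but the t-test (adjusted p = 0.0127). The median over the members was -0.15 to -0.060 over the arrays left out, and that of the SREBP regulators with STARD4 0.375 to 0.43. No member that passed changed its sign. INSIG2 ranged from -0.19 to 0.017 over the arrays left out, turning to 0.017 without MCF10A replicate 3 and to 0.0054 without MCF10A-SNAI1 replicate 1. FDPS ranged from -0.022 to 0.035, below 0 without MCF10A replicate 3 or MCF10A-SNAI1 replicate 2, and was at -0.0024 with arrays centred on their median. The titles do not say whether arrays with the same number were handled together. Deviations of arrays with the same number correlated at 0.12, 0.12 and -0.0062, and 4 of 6 arrays correlated best with their own number. Whether the samples are paired cannot be told from these values. A log transformation for values on a linear scale was not run, since these are log2.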
